A study of Mus musculus with 6 samples.

Results

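The Rab GTPases and the sorting nexins were examined in splenic regulatory T cells (Tregs, CD4 T cells that hold immune responses in check) with and without a functional Nfkb2 gene. Members were the protein-coding genes whose GRCm38 symbol is Rab or Snx followed by digits and at most 1 letter, which gave 59 Rab genes and 30 Snx genes, 89 of the 55573 genes listed. Of these, 69 had enough counts to be tested (42 Rab and 27 Snx). Members were chosen by symbol, with no measured value in the rule, but the comparison between genotypes was known when the genes were proposed, so its values are given here as a description. Rab3ip and Rab5if carry longer suffixes, are not themselves Rab GTPases, and are given apart.

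The Tregs came from the spleens of chimeric mice, described as bi-parental bone marrow chimeras, in which the blood system has been rebuilt from donor marrow, and rested for 2 h in medium before lysis. Nfkb2-/- Tregs (3 libraries), which carry a knockout of the gene for the NF-kB precursor p100 and its processed form p52, were compared with wild type Tregs (3 libraries). No other allele or agent is named for either genotype. The labels call the libraries biological repeats and give a sort purity above 90%; they do not give the age or sex of donors and hosts, the allele that was deleted, or whether animals were pooled.

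Rab proteins are small GTPases that switch between a GDP-bound and a GTP-bound form. In the GTP-bound form each Rab marks a particular membrane and recruits the motors, tethers and kinases that move or fuse vesicles there. Sorting nexins share a PX domain that binds phosphoinositide lipids. Many bend the endosomal membrane into tubules or hold cargo for return to the cell surface or the Golgi, with or without the retromer complex. In T cells both families serve the recycling of surface receptors and the release of secretory granules.

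Library totals ran from 12005273 to 17278521 counts. Levels are given in CPM (the usual depth-scaled count, here on TMM-adjusted library sizes), and levels of different genes are compared only in CPM per kb of exon. Nfkb2 was at 269, 324 and 271 CPM in Nfkb2-/- libraries, against 558, 545 and 556 CPM in wild type, so the targeted gene was lower in each knockout library but still counted. Foxp3, which defines Tregs, was at 448 to 576 CPM in Nfkb2-/- Tregs and at 407 to 622 CPM in wild type. Of 9 Treg markers edgeR called 0, but 1 was separate and higher in Nfkb2-/- and 1 separate and lower. Ikzf2 was at 722, 794 and 823 CPM in Nfkb2-/-, against 517, 539 and 436 CPM in wild type (log2 fold change 0.65, edgeR adjusted p = 0.0875). Il2ra was at 410, 413 and 496 CPM in Nfkb2-/-, against 525, 560 and 635 CPM in wild type (log2 fold change -0.38, edgeR adjusted p = 0.305). The genotypes also differed in sex-linked RNA: Xist was at 592 to 883 CPM in Nfkb2-/- Tregs and at 1.94 to 16.5 CPM in wild type, and 4 Y-linked genes summed to 40.0, 138 and 275 CPM in Nfkb2-/- against 465, 498 and 477 CPM in wild type. Sex and genotype therefore cannot be told apart. The 13 B cell markers summed to 62.1 to 93.4 CPM in Nfkb2-/- Tregs and to 112 to 359 CPM in wild type, and none was at 0 in all libraries. The 4 NK cell markers summed to 15.8 to 23.0 CPM in Nfkb2-/- Tregs and to 5.02 to 9.10 CPM in wild type, nearly all of it Eomes, and the 2 CD8 T cell markers to 10.4 to 13.7 CPM in Nfkb2-/- Tregs and 13.3 to 22.7 CPM in wild type. Wild type replicate 1 stood apart, with log2 CPM correlating across genes with the other libraries at r from 0.941 to 0.955; genes are not independent replicates.

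Of the 69 tested members, 2 rose in Nfkb2-/- Tregs (Rab26 and Rab27a) and 2 fell (Rab4a and Snx8), by the edgeR quasi-likelihood test with Benjamini-Hochberg adjustment over all 13347 genes tested and a threshold of 0.05. Over all tested genes, 1.01% rose and 0.405% fell, 1.42% in either direction. The median log2 fold change (Nfkb2-/- over wild type) was 0.02 over the members, 0.04 over the Rab genes, -0.07 over the Snx genes and -0.03 over all genes. In 45 of 69 members the log2 fold change was smaller than 0.25 in either direction, as in 7510 of all 13347 tested genes. The nearest members on either side of the threshold were Snx8 (adjusted p = 0.0492) and Snx15 (adjusted p = 0.150, both edgeR). P-values measure the spread between these libraries. In bulk RNA, fewer cells of a type and less RNA per cell cannot be told apart.

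**Figure D1:**
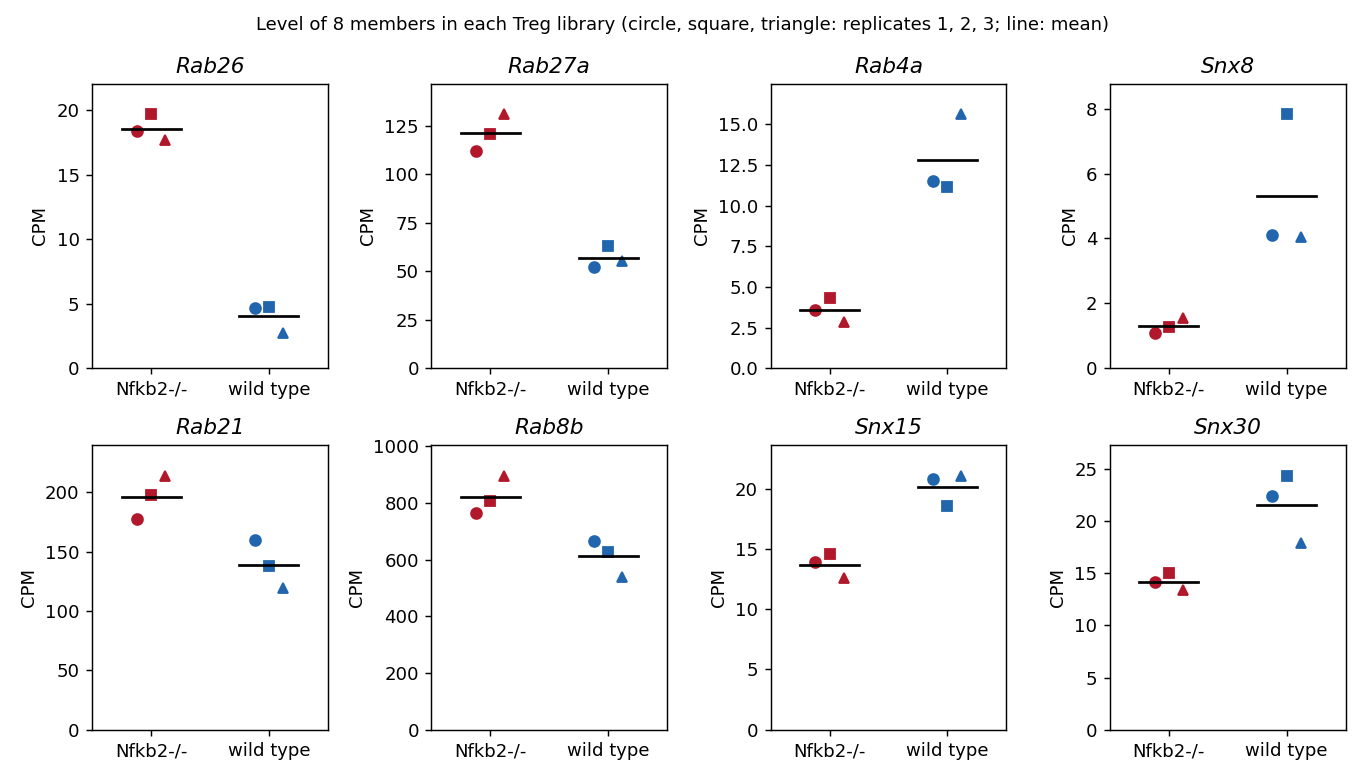
Level (CPM, y axis from 0) of 8 members in each library, with Nfkb2-/- left of wild type, replicates 1 to 3 as circle, square and triangle, and a line at the mean. The genotypes are separate in all 8 panels, which show some of the members without overlap. Of 69 tested members, 11 were separate and higher in Nfkb2-/- and 7 separate and lower, beside 20.6% of all tested genes in either direction. Rab26, Rab27a, Rab4a and Snx8 passed the test, whereas Rab21, Rab8b, Snx15 and Snx30 did not.

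Promoter windows (250 bases before to 50 after a gene's start, RefSeq, GRCm38.p6) were available for 69 of the 89 members, among them Rab27a and Snx8 of the called members. They were searched on both strands for the NF-kB 10-letter consensus, the general binding motif of the protein family to which p52 belongs. It was found in 6 of 69 members (8.70%) and in 9.55% of all 27025 genes with a window. Those members were Rab11a, Rab15, Rab28, Snx21, Snx25 and Snx6, none of them called, and Rab15 holds 2 overlapping matches. The matches of Rab11a and Snx6 are shown, with the motif in capitals, as an example from each family (Rab11a at chr9:64737758-64737787 and Snx6 at chr12:54795872-54795901, both minus strand):
Rab11a: gcgaggggctGGGGCCTTCCggaagtgacg
Snx6: gggtggccctGGGGCCTTCCcaagcctgag

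The windows of Rab27a and Snx8 hold no such match. Their upstream bases are shown because they are the called members with a window, with CACGTG in capitals, a hexamer bound by many basic helix-loop-helix factors that was chosen after the Snx8 sequence had been seen. It occurs in 9 of 69 members and in 8.09% of all genes with a window. Snx8 has it at position -100 from its start, and Rab27a has none in its first window, shown here, and 1 at -246 in its second (Rab27a at chr9:73044560-73044809, plus strand, and Snx8 at chr5:140389309-140389558, minus strand). A match is a description of letters and was not tested for binding.
Rab27a: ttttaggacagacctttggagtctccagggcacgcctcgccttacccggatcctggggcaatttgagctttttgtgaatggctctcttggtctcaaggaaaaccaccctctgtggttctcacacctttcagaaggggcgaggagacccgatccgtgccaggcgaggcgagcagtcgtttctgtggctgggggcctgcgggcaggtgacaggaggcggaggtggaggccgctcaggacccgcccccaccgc
Snx8: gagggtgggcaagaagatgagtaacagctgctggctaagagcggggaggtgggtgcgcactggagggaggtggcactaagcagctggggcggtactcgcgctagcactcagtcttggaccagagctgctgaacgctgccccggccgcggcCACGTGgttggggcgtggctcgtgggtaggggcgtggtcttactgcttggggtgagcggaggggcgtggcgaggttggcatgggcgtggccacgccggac

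Among the 12 Rab genes of secretory vesicles and exocytosis, 8 were tested, and Rab26 and Rab27a were the 2 that rose and none fell, beside 1.01% higher and 0.405% lower over all tested genes. Rab26 acts on secretory granules and synaptic vesicles. Rab26 (ENSMUSG00000079657, chromosome 17, 24527241 to 24534210, minus strand, GRCm38) was at 18.4, 19.7 and 17.7 CPM in Nfkb2-/- libraries, against 4.64, 4.75 and 2.77 CPM in wild type. Every Nfkb2-/- library was well above every wild type library. The means were 18.6 ± 1.04 CPM in Nfkb2-/- Tregs and 4.05 ± 1.11 CPM in wild type Tregs (SD, n = 3 each), a 4.55-fold difference (log2 fold change 2.19, SE 0.240, edgeR adjusted p = 0.00916). These levels rest on 222, 280 and 217 counts in Nfkb2-/- and 86, 60 and 33 in wild type.

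Rab26 shares 267 exon bases with the neighbouring gene Traf7 on the same strand, a ubiquitin ligase gene. Traf7 was at 179, 196 and 185 CPM in Nfkb2-/- Tregs and at 181, 154 and 155 CPM in wild type (log2 fold change 0.19, edgeR adjusted p = 0.557), and 5.95% of the 50-base stretches of Rab26 also occur in other genes. The sources used here do not say how reads in the shared bases were counted. The closest relative of Rab26 by coding sequence is Rab37 (53.9% identity), another Rab of secretory granules. Rab37 was at 60.2, 65.6 and 58.6 CPM in Nfkb2-/-, against 23.4, 59.7 and 72.6 CPM in wild type, where replicate 1 was the lowest of all libraries. Rab26 made up 36.3%, 36.0% and 36.0% of the summed Rab26 and Rab37 level per kb in Nfkb2-/-, against 27.0%, 12.9% and 6.66% in wild type.

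Rab27a docks lytic and other lysosome-related granules at the plasma membrane, and its loss in humans causes Griscelli syndrome, with failed granule release by cytotoxic lymphocytes. Rab27a (ENSMUSG00000032202, chromosome 9, 73044854 to 73097629, plus strand, GRCm38) was at 112, 121 and 131 CPM in Nfkb2-/- libraries, against 52.1, 62.8 and 55.4 CPM in wild type. The lowest Nfkb2-/- library stood well above the highest wild type library. The means were 121 ± 9.46 CPM in Nfkb2-/- Tregs and 56.8 ± 5.50 CPM in wild type Tregs (SD, n = 3 each), a 2.14-fold difference (log2 fold change 1.10, SE 0.127, edgeR adjusted p = 0.0112). The counts were 1354, 1717 and 1608 in Nfkb2-/- and 966, 794 and 659 in wild type, the most counts of the 4 called members. Its close relative Rab27b (67.4% identity in coding sequence) summed to 4 counts in Nfkb2-/- and 10 in wild type, and Rab27a held 99.97% of the pair's level per kb in Nfkb2-/- and 99.8% in wild type.

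Eomes, a transcription factor of NK cells and some T cells, also rose, with means of 19.3 ± 3.73 CPM in Nfkb2-/- Tregs and 6.39 ± 1.85 CPM in wild type Tregs (SD, n = 3 each). The edgeR adjusted p of Eomes was 0.0364 at a log2 fold change of 1.60. The NK receptor genes Ncr1, Klrb1c and Klra8 were each at most 0.733 CPM in Nfkb2-/- libraries and 1.19 CPM in wild type. These levels are near the floor and their directions differed. Ncr1 was at 0.165, 0.211 and 0.489 CPM in Nfkb2-/-, against 0.162, 0.0791 and 0.0840 CPM in wild type, from 11 and 5 counts. Klra8 had 0 counts in Nfkb2-/- and 5 in wild type, and Klrb1c overlapped. The part of NK cell RNA in the levels of Rab26 and Rab27a was not tested.

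The other tested members of this role did not pass the test. Rab8b, which carries vesicles to the plasma membrane, was at 764, 807 and 897 CPM in Nfkb2-/-, against 668, 629 and 539 CPM in wild type. The genotypes did not overlap (log2 fold change 0.43, edgeR adjusted p = 0.258). Rab3a, a Rab of regulated exocytosis best known from neurons, had low levels of 1.22 ± 0.175 CPM in Nfkb2-/- Tregs and 2.24 ± 0.537 CPM in wild type (log2 fold change -0.88, edgeR adjusted p = 0.300). Rab10 and Rab8a, which serve delivery to the surface, had log2 fold changes of 0.02 and 0.05.

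Rab4a was the 1 called member among the 13 tested Rabs of early and recycling endosomes, beside 1.42% called over all tested genes. It drives the fast return of internalised receptors from early endosomes to the surface. Rab4a (ENSMUSG00000019478, chromosome 8, 123805985 to 123835287, plus strand, GRCm38) was at 3.56, 4.29 and 2.85 CPM in Nfkb2-/- libraries, against 11.5, 11.2 and 15.6 CPM in wild type. Each Nfkb2-/- library was below each wild type library. The means were 3.57 ± 0.722 CPM in Nfkb2-/- Tregs and 12.8 ± 2.48 CPM in wild type Tregs (SD, n = 3 each), 3.56-fold lower (log2 fold change -1.83, SE 0.249, edgeR adjusted p = 0.0180). The counts were 43, 61 and 35 in Nfkb2-/- and 214, 141 and 186 in wild type.

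Rab4b is the closest relative of Rab4a (72.9% identity in coding sequence), and the Rab4a exons hold 0 stretches of 50 bases found in another gene. Rab4b was at 2.07, 2.46 and 2.28 CPM in Nfkb2-/- Tregs and at 3.34, 2.45 and 1.60 CPM in wild type, so the genotypes overlapped (log2 fold change -0.13, edgeR adjusted p = 0.916). Rab4a supplied 63.5 ± 4.41% of the summed Rab4a and Rab4b level per kb in Nfkb2-/-, against 84.9 ± 6.20% in wild type Tregs (SD, n = 3 each). This share depends on how Rab4b reads were counted, since 58.1% of the 50-base stretches of Rab4b also occur in other genes and 1280 of its exon bases are shared with Gm21983 on the same strand, a gene with 0 counts. The ranges of this share did not overlap, with 66.1% the highest in Nfkb2-/- and 79.5% the lowest in wild type.

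Of the other early and recycling endosome Rabs, Rab21, which carries integrins through early endosomes, was at 177, 197 and 214 CPM in Nfkb2-/-, against 159, 138 and 120 CPM in wild type. The libraries did not overlap, but Rab21 did not pass the test (log2 fold change 0.50, edgeR adjusted p = 0.168). Rab14, which works between early endosomes and the Golgi, was at 214 ± 1.92 CPM in Nfkb2-/- Tregs and 178 ± 9.10 CPM in wild type (log2 fold change 0.26, edgeR adjusted p = 0.344). Rab11a, the main Rab of recycling endosomes, was at 46.0 ± 0.629 CPM in Nfkb2-/- Tregs and 39.7 ± 4.10 CPM in wild type (log2 fold change 0.21, edgeR adjusted p = 0.555). Rab31, of the Golgi and early endosomes, was at 1.69 ± 0.404 CPM in Nfkb2-/- Tregs and 2.34 ± 0.448 CPM in wild type (log2 fold change -0.47, edgeR adjusted p = 0.622). The Rab5 proteins, which govern fusion of early endosomes, had log2 fold changes of 0.12 (Rab5a), -0.06 (Rab5b) and 0.07 (Rab5c).

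None of the 5 tested Rabs of late endosomes, lysosomes and autophagy passed the test. Neither DESeq2 nor limma-voom called any, and 0 had an unadjusted p under 0.05. Over all tested genes edgeR called 1.42%, and 13.6% had an unadjusted p under 0.05, so few or none would be called among 5. Rab7, which controls late endosome and lysosome fusion, was at 176 ± 14.8 CPM in Nfkb2-/- Tregs and 176 ± 20.8 CPM in wild type. Rab9, an X-linked gene for return from late endosomes to the Golgi, was at 12.4, 15.3 and 14.1 CPM in Nfkb2-/-, against 15.9, 17.2 and 16.6 CPM in wild type. These ranges were separate by a small margin (log2 fold change -0.25, edgeR adjusted p = 0.574). Rab32, which serves lysosome-related organelles, was at 1.40 ± 0.443 CPM in Nfkb2-/- Tregs and 2.08 ± 0.347 CPM in wild type (log2 fold change -0.57, edgeR adjusted p = 0.559). Rab29, which recruits the kinase Lrrk2, had a log2 fold change of -0.08 (edgeR adjusted p = 0.907). Rab29 and Rab7b are the members within 10 Mb of Ptprc, the gene of the CD45 allele often used to mark donors, and no member lies within 10 Mb of Nfkb2. Rab7b was not tested, with 10 counts over Nfkb2-/- and 16 over wild type libraries.

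Of the 11 tested Rabs of the endoplasmic reticulum and Golgi, none passed the edgeR test, beside 1.42% of all tested genes. Limma-voom called 0 and 1 had an unadjusted p under 0.05, beside 1.47% and 13.6% of all genes. DESeq2 called 1, beside 5.09% of all genes. That gene was Rab39b, an X-linked gene linked to autophagy and mutated in human intellectual disability. Rab39b was at 5.30, 5.28 and 4.64 CPM in Nfkb2-/-, against 2.00, 1.90 and 3.44 CPM in wild type. All Nfkb2-/- libraries were higher than all wild type libraries (log2 fold change 1.06, edgeR adjusted p = 0.172, DESeq2 adjusted p = 0.0498). Beside it stands the X-linked transcript Xist, whose levels given above separate the genotypes in the same direction. The other tested X-linked members, Rab9 and Snx12, went the other way, with log2 fold changes of -0.25 and -0.14. The part of X linkage in the level of Rab39b was not tested. In a fit that also held the summed Y-linked level, the log2 fold change was 0.93 for Rab39b, with an SE of 0.532 and an edgeR adjusted p of 0.772. Without that level the SE was 0.311. The Y-linked level is itself separate between the genotypes, so this fit cannot tell it apart from genotype. Over all genes 0.0524% passed in it. Rab36, a Golgi Rab that influences where late endosomes lie, was at 0.954 ± 0.0886 CPM in Nfkb2-/- Tregs and 0.618 ± 0.194 CPM in wild type (log2 fold change 0.61, edgeR adjusted p = 0.579). Rab1a, Rab1b, Rab2a and Rab6a, the general Rabs of these membranes, had log2 fold changes of 0.17, 0.02, -0.03 and 0.01. Among the 5 tested Rabs of other roles, none was called by edgeR, DESeq2 or limma-voom. An unadjusted p under 0.05 was reached by 0 of them, beside 13.6% of all tested genes. Rab19 had the smallest p of these (log2 fold change 0.32, edgeR adjusted p = 0.651).

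**Figure D2:**
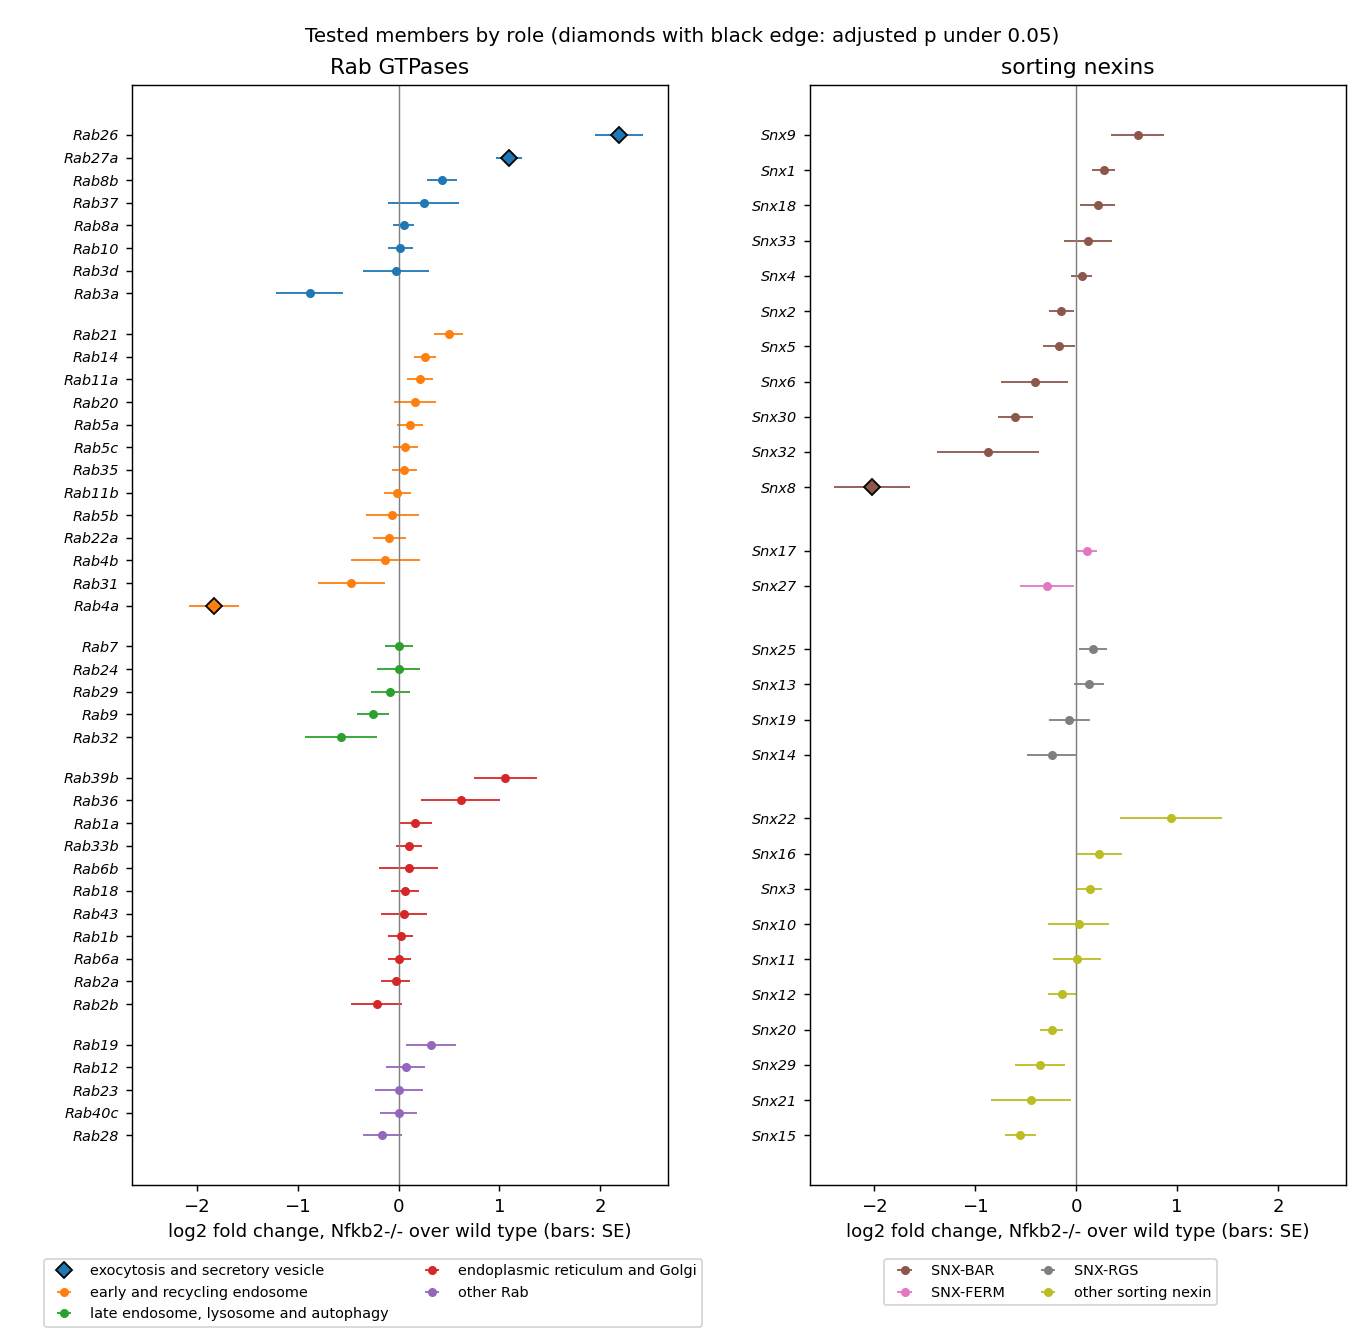
Log2 fold change (x axis, Nfkb2-/- over wild type, bars: SE) of the 42 tested Rab genes and 27 tested Snx genes, ordered by role. The 4 black-edged diamonds mark Rab26 (2.19), Rab27a (1.10), Rab4a (-1.83) and Snx8 (-2.03), and most other members lie near 0.

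Among the 27 tested sorting nexins, Snx8 was the 1 called member, beside 1.42% called over all tested genes. It belongs to the SNX-BAR group, whose banana-shaped domain bends membrane into tubules, and it takes part in transport from endosomes to the Golgi. Snx8 (ENSMUSG00000029560, chromosome 5, 140340299 to 140389262, minus strand, GRCm38) was at 1.08, 1.27 and 1.55 CPM in Nfkb2-/- libraries, against 4.10, 7.83 and 4.03 CPM in wild type. The highest Nfkb2-/- library stayed below the lowest wild type library, and wild type replicate 2 was the highest of all. The means were 1.30 ± 0.237 CPM in Nfkb2-/- Tregs and 5.32 ± 2.18 CPM in wild type Tregs (SD, n = 3 each), 4.07-fold lower (log2 fold change -2.03, SE 0.374, edgeR adjusted p = 0.0492). These rest on 13, 18 and 19 counts in Nfkb2-/- and 76, 99 and 48 in wild type. Snx8 was called by DESeq2 (adjusted p = 0.000256) but not by limma-voom (adjusted p = 0.0658). The B cell markers were also lower in Nfkb2-/-, at 62.1, 71.7 and 93.4 CPM against 112, 359 and 253 CPM in wild type. With their level as a covariate the log2 fold change of Snx8 was -1.23 (edgeR adjusted p = 0.0816), in a fit in which 22.4% of all genes passed. The marker level is itself separate between the genotypes, so this fit cannot tell it apart from genotype. The 9 myeloid and dendritic cell markers were also highest in wild type replicate 2. They summed to 11.3, 15.1 and 30.1 CPM in Nfkb2-/-, against 13.5, 63.2 and 15.1 CPM in wild type, with overlap. The part of B cell, myeloid or dendritic cell RNA in the level of Snx8 was not tested.

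The other 10 tested SNX-BAR genes did not pass the test. Snx30, a partner of Snx4 in recycling, was at 14.1, 15.1 and 13.4 CPM in Nfkb2-/-, against 22.4, 24.4 and 17.9 CPM in wild type. The libraries did not overlap (log2 fold change -0.60, edgeR adjusted p = 0.161). Snx1, which forms cargo-carrying tubules with Snx5 or Snx6, was at 87.5 ± 2.47 CPM in Nfkb2-/- Tregs and 72.5 ± 4.40 CPM in wild type (log2 fold change 0.27, edgeR adjusted p = 0.338), while its relative Snx2 was at 70.1 ± 3.72 CPM in Nfkb2-/- Tregs and 77.8 ± 8.27 CPM in wild type (log2 fold change -0.15). Snx1 supplied 43.7 ± 1.76% of their summed level per kb in Nfkb2-/- and 36.9 ± 3.87% in wild type Tregs (SD, n = 3 each), with the closest libraries at 41.9% in Nfkb2-/- Tregs and 41.2% in wild type. Snx9, which links clathrin-mediated uptake to actin and dynamin, was at 42.4, 57.2 and 59.0 CPM in Nfkb2-/-, against 22.1, 44.9 and 37.1 CPM in wild type, with overlap (log2 fold change 0.61, edgeR adjusted p = 0.366).

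Snx32 and Snx6, the closely related partners of Snx1 and Snx2, overlapped between genotypes. Snx32 was at 5.38, 4.36 and 2.77 CPM in Nfkb2-/-, against 13.7, 3.64 and 5.38 CPM in wild type (log2 fold change -0.87, edgeR adjusted p = 0.531). Snx6 was at 32.8, 25.2 and 23.9 CPM in Nfkb2-/-, against 57.5, 26.0 and 25.0 CPM in wild type (log2 fold change -0.41, edgeR adjusted p = 0.669). In both genes wild type replicate 1 was the highest library, and without it the log2 fold change of Snx6 was 0.10. Snx32 shares 468 exon bases with Cfl1, a highly counted gene on the other strand, which unstranded libraries cannot separate.

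The 2 tested SNX-FERM genes and 4 tested SNX-RGS genes held 0 calls by edgeR, DESeq2 and limma-voom. They held 0 unadjusted p under 0.05, beside 13.6% of all tested genes. Snx17, which returns integrins to the surface with the retriever complex, was at 102 ± 3.41 CPM in Nfkb2-/- Tregs and 94.9 ± 2.82 CPM in wild type (log2 fold change 0.10). Snx27, which does so with retromer through a PDZ domain, was at 54.0, 50.8 and 52.7 CPM in Nfkb2-/-, against 95.7, 52.3 and 44.6 CPM in wild type. Only wild type replicate 1 stood high (log2 fold change -0.29, edgeR adjusted p = 0.714).

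Of the 10 tested sorting nexins without these domains, none passed the edgeR test, beside 1.42% of all tested genes. Limma-voom called 0 and 1 had an unadjusted p under 0.05, beside 1.47% and 13.6% of all genes. DESeq2 called 1, Snx15, beside 5.09% of all genes. Snx15, an endosomal sorting nexin, was at 13.9, 14.6 and 12.6 CPM in Nfkb2-/-, against 20.8, 18.5 and 21.1 CPM in wild type. The ranges were separate (log2 fold change -0.56, edgeR adjusted p = 0.150, DESeq2 adjusted p = 0.0410). Snx20, which binds the selectin ligand PSGL-1 in leukocytes, was at 94.2 ± 7.69 CPM in Nfkb2-/- Tregs and 111 ± 4.27 CPM in wild type (log2 fold change -0.24, edgeR adjusted p = 0.415). Snx22 was at 1.16, 0.986 and 0.977 CPM in Nfkb2-/-, against 0.216, 0.712 and 0.756 CPM in wild type (log2 fold change 0.94, edgeR adjusted p = 0.487), and it shares 825 exon bases with Ppib on the other strand. Snx29 and the X-linked Snx12, a relative of Snx3, had log2 fold changes of -0.36 (edgeR adjusted p = 0.611) and -0.14 (edgeR adjusted p = 0.750). Apart from the members, Rab3ip and Rab5if had log2 fold changes of -0.09 and -0.38.

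The 3 libraries of each genotype did not overlap in 18 of 69 members, 11 with Nfkb2-/- higher and 7 with Nfkb2-/- lower. Over all tested genes 20.6% did not overlap, 10.7% higher and 9.9% lower. The 11 were Rab11a, Rab14, Rab21, Rab26, Rab27a, Rab36, Rab39b, Rab8b, Snx1, Snx17 and Snx22, and the 7 were Rab3a, Rab4a, Rab9, Snx15, Snx20, Snx30 and Snx8. An unadjusted p under 0.05 was reached by 13 members, against 1816 of all 13347 genes (13.6%).

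The 20 members that were not tested had 0 to 67 counts over the 6 libraries. Rab17, Rab38, Rab42, Rab9b, Snx31 and Snx7 had 0 counts in every library. Rab30, a Golgi Rab, had the most, 16 counts over Nfkb2-/- and 51 over wild type libraries. Rab34 had 36 over Nfkb2-/- and 16 over wild type libraries.

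In both genotypes the families were dominated by a few members. Rab8b had the highest level of any member, at 174 CPM per kb in Nfkb2-/- and 129 CPM per kb in wild type. It was followed among the Rabs by Rab5c, Rab7, Rab2a, Rab1b and Rab10, at means over all 6 libraries of 70.7, 67.3, 56.8, 48.7 and 48.2 CPM per kb. Among the sorting nexins, Snx3, which sorts cargo with retromer, and Snx18, a relative of Snx9, came first at 79.3 and 77.0 CPM per kb. They were followed by Snx17, Snx5, Snx2 and Snx4 at 31.9, 29.2, 27.4 and 20.5 CPM per kb. Snx18 varied within Nfkb2-/-, at 517, 355 and 421 CPM, against 337, 363 and 417 CPM in wild type, so its order relative to Snx3 is within its spread.

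**Figure D3:**
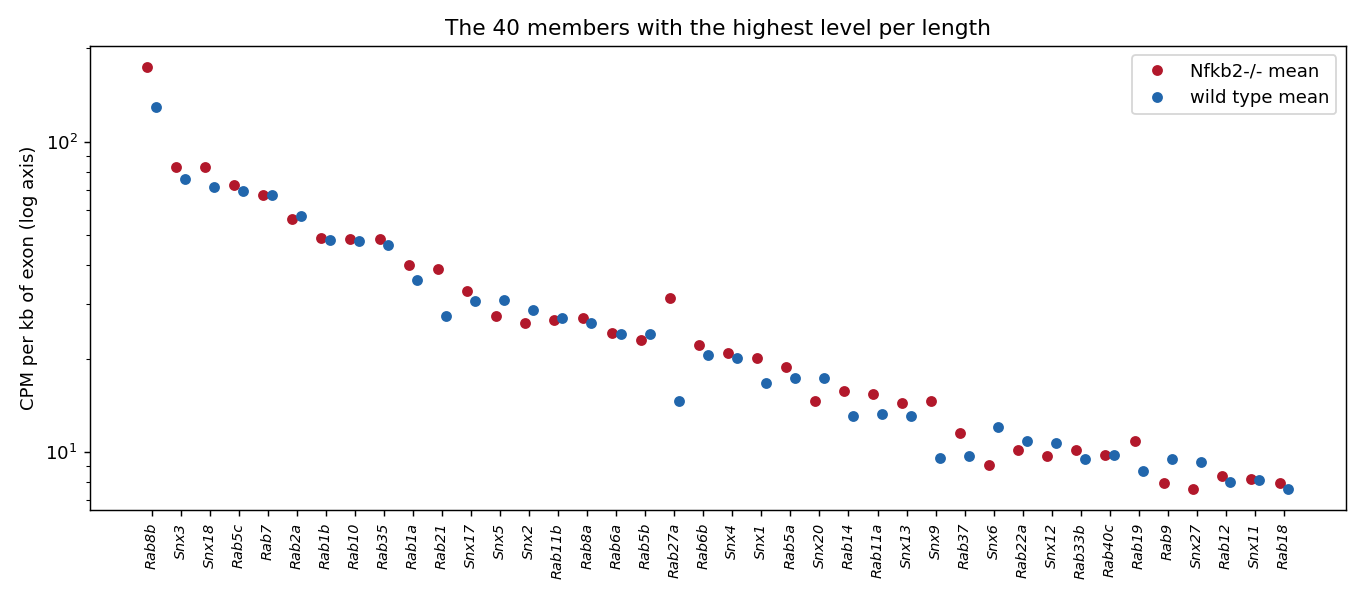
Mean level (CPM per kb of exon, log axis) of the 40 members with the highest mean over all 6 libraries, with Nfkb2-/- and wild type means side by side. Rab8b stands highest at 174 CPM per kb in Nfkb2-/- and 129 CPM per kb in wild type, and Snx3 and Snx18 lead the sorting nexins.

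Summed over all its members, the Rab family took 3382, 3524 and 3736 CPM in Nfkb2-/- libraries, against 3226, 3111 and 3001 CPM in wild type. On this scale the ranges did not overlap. As a share of unscaled library counts they did, at 0.340%, 0.349% and 0.359% in Nfkb2-/- libraries and 0.346%, 0.314% and 0.286% in wild type. Rab8b contributed 823 ± 67.9 CPM to this sum in Nfkb2-/- Tregs and 612 ± 66.0 CPM in wild type Tregs (SD, n = 3 each). The Snx family summed to 1681, 1506 and 1605 CPM in Nfkb2-/- Tregs and to 1596, 1532 and 1563 CPM in wild type, with overlap.

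Wild type replicate 1 was the highest of the 6 libraries in 22 members and the lowest in 22 members, 31.9% each, compared with 34.2% and 31.5% of all tested genes. Rab5b was at 94.6, 97.4 and 98.3 CPM in Nfkb2-/-, against 150, 82.2 and 70.7 CPM in wild type. Rab6b, a Golgi Rab, was at 109, 110 and 115 CPM in Nfkb2-/-, against 162, 77.9 and 71.4 CPM in wild type. Snx14, an SNX-RGS gene, was at 41.0, 38.5 and 37.9 CPM in Nfkb2-/-, against 67.0, 35.1 and 36.3 CPM in wild type. In all of these the first wild type library lay above the Nfkb2-/- range and at least 1 of the others lay below it. The median coefficient of variation over members was 7.35% in Nfkb2-/- Tregs and 16.7% in wild type, and 8.45% in wild type replicates 2 and 3 alone. The last value rests on 2 libraries and the others on 3, so it is not directly comparable with them.

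**Figure D4:**
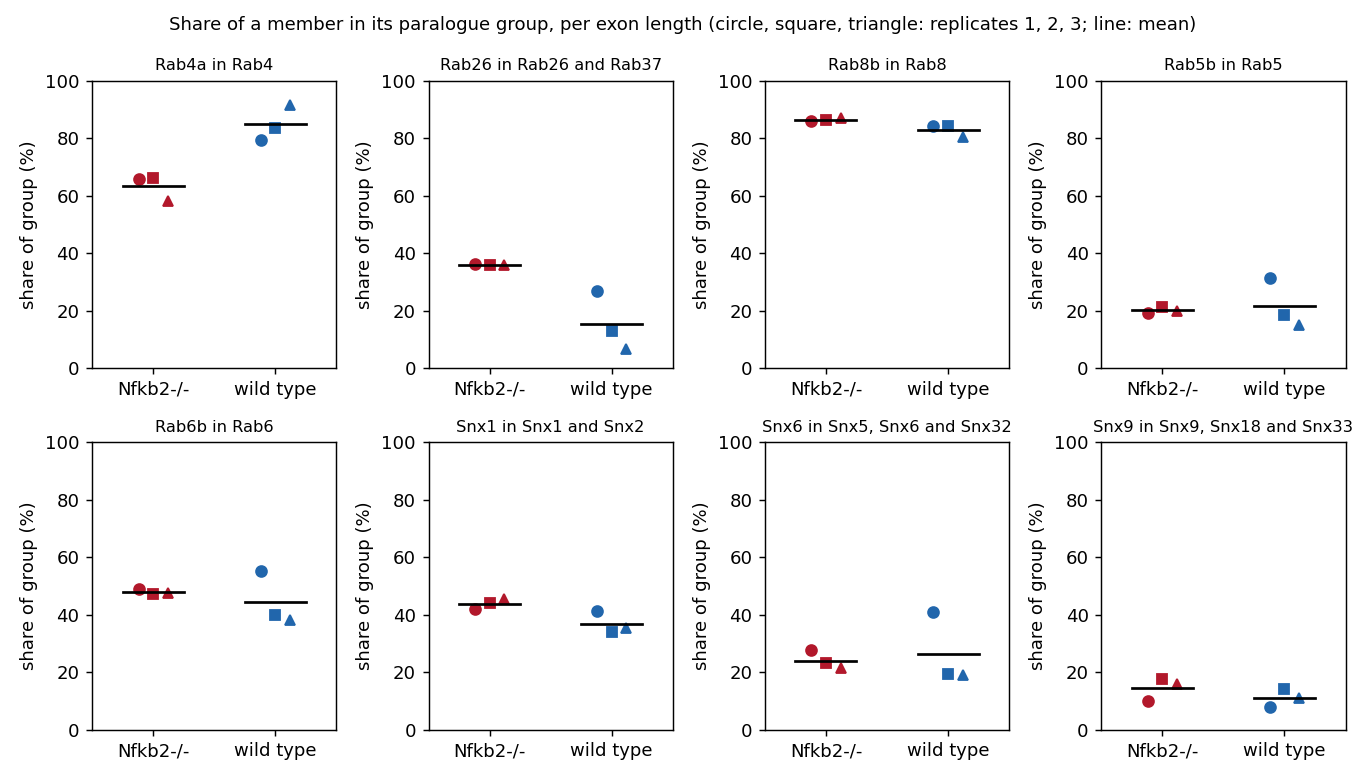
Share (% of the summed CPM per kb, y axis 0 to 100) of 8 members in their groups of close relatives, with Nfkb2-/- left of wild type, replicates 1 to 3 as circle, square and triangle, and a line at the mean. Rab4a averages 63.5% in Nfkb2-/- Tregs and 84.9% in wild type, Rab26 averages 36.1% in Nfkb2-/- Tregs and 15.5% in wild type, and the wild type circle stands apart for Rab5b, Rab6b and Snx6.

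Calls depended on which libraries entered the test. Without any 1 of the Nfkb2-/- libraries no member passed in edgeR. Over all genes, 0.109%, 0.0509% and 0.087% passed in the fits without replicates 1, 2 and 3. An unadjusted p under 0.05 was reached by 12 of 71, 8 of 70 and 8 of 70 members in these fits, against 11.6%, 8.06% and 8.02% of all genes. For Rab26 the edgeR adjusted p was 0.0698, 0.0855 and 0.0722 without replicates 1, 2 and 3, and for Rab27a it was 0.0661, 0.0887 and 0.101. For Rab4a it was 0.114, 0.103 and 0.126 without these replicates, and 0.0510 and 0.0595 on leaving out wild type replicates 2 and 3. For Snx8 it was 0.183, 0.268 and 0.203 on leaving out each Nfkb2-/- replicate, and 0.104 and 0.0795 on leaving out wild type replicates 2 and 3, fits in which 0.458% and 0.479% of all genes passed. Without wild type replicate 1, 10 of 71 tested members passed, against 9.04% of all genes in that fit: Rab21, Rab26, Rab27a, Rab6b and Rab8b higher, and Rab30, Rab4a, Snx15, Snx30 and Snx8 lower. In that fit Rab6b had a log2 fold change of 0.58 (edgeR adjusted p = 0.00421) and Rab30 of -2.21 (edgeR adjusted p = 0.0103). With all 6 libraries Rab30 had too few counts to be tested. It had 5, 8 and 3 counts in Nfkb2-/- and 3, 29 and 19 in wild type. In CPM the library left out was the lowest of all 6 for Rab30, at 0.162 CPM, against 0.414, 0.563 and 0.244 CPM in Nfkb2-/-. This call therefore rests on the choice of libraries.

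DESeq2 called 6 of 69 members, against 5.09% of all genes, and limma-voom called 3, against 1.47% of all genes. With the B cell marker level as a covariate 12 of 69 members passed, against 22.4% of all genes. In the fit that also held the Y-linked level no member passed in edgeR, against 0.0524% of all genes, and 5 of 69 had an unadjusted p under 0.05, against 7.04% of all genes. The log2 fold changes in that fit were 2.17 for Rab26 (edgeR adjusted p = 0.285), 1.26 for Rab27a (0.263), -2.00 for Rab4a (0.410) and -1.63 for Snx8 (0.708). Over 15 alternative settings the log2 fold change stayed between 1.98 and 2.30 for Rab26, between 1.04 and 1.36 for Rab27a, between -2.00 and -1.66 for Rab4a and between -2.19 and -1.23 for Snx8.

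**Figure D5:**
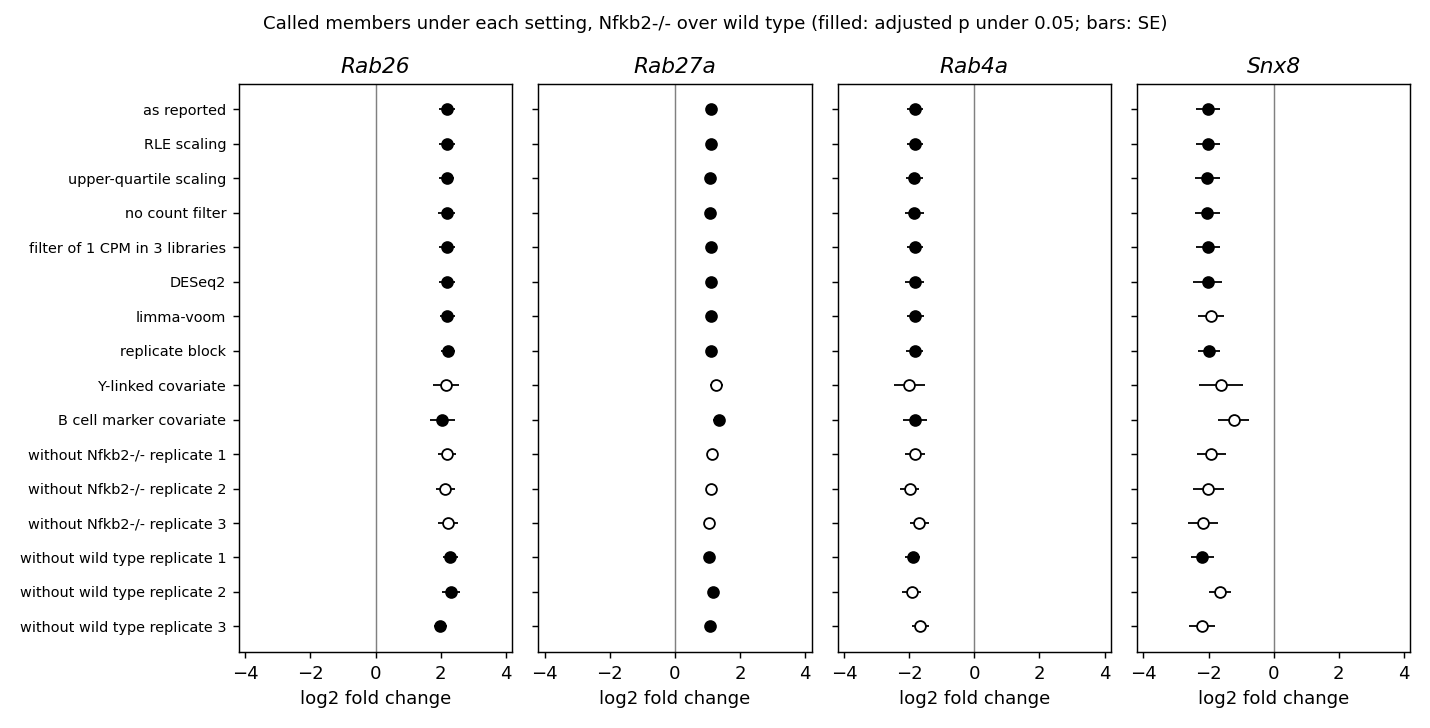
Log2 fold change (x axis, Nfkb2-/- over wild type, bars: SE) of the 4 called members under each setting, filled where the adjusted p was under 0.05. Rab26 and Rab27a stay above 0 and Rab4a and Snx8 below 0 in each setting shown, and the open points include those without a Nfkb2-/- library.

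The genes that act with Rabs and sorting nexins were counted in 6 lists. Over all tested genes edgeR called 1.42%, limma-voom 1.47% and DESeq2 5.09%, and 13.6% had an unadjusted p under 0.05. Of 42 tested Rab activators and delivery factors 1 rose and 0 fell, with a median log2 fold change of -0.10. The gene was Rin2, an exchange factor that activates Rab5. Rin2 was at 44.3, 48.1 and 40.6 CPM in Nfkb2-/-, against 12.7, 17.5 and 14.1 CPM in wild type. The genotypes were clearly separate (log2 fold change 1.59, SE 0.168, edgeR adjusted p = 0.00916). Dennd5a, a DENN domain activator, came next with 417 ± 57.2 CPM in Nfkb2-/- Tregs and 229 ± 36.2 CPM in wild type, and did not pass (log2 fold change 0.86, edgeR adjusted p = 0.0562).

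Among 37 tested Rab inactivators edgeR called 0, limma-voom 0 and DESeq2 1, and 3 had an unadjusted p under 0.05. The smallest p belonged to Tbc1d16, a GTPase-activating protein for Rab4a, which was at 1.16, 0.704 and 1.14 CPM in Nfkb2-/-, against 3.29, 2.77 and 3.44 CPM in wild type. The ranges were separate, as they were for Rab4a itself (log2 fold change -1.66, edgeR adjusted p = 0.0592). Tbc1d2b, which inactivates Rab22, had a log2 fold change of -0.52 (edgeR adjusted p = 0.237).

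Of 60 tested effectors and tethers edgeR called 0, limma-voom 0 and DESeq2 5, and 8 had an unadjusted p under 0.05. Ehbp1l1, an effector of Rab8, was at 175 ± 9.56 CPM in Nfkb2-/- Tregs and 122 ± 7.84 CPM in wild type (log2 fold change 0.52, edgeR adjusted p = 0.0764). Lrrk2, a kinase that phosphorylates several Rabs, was at 2.51 ± 0.816 CPM in Nfkb2-/- Tregs and 8.39 ± 3.40 CPM in wild type (log2 fold change -1.73, edgeR adjusted p = 0.0832). Like the B cell markers and the myeloid and dendritic cell markers, Lrrk2 was highest in wild type replicate 2, at 12.3 CPM. The part of RNA from these cells in its level was not tested.

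None of the 6 retromer and retriever genes was called by edgeR, DESeq2 or limma-voom, and 0 had an unadjusted p under 0.05. The smallest p were those of the cargo-arm subunits Vps26c of retriever (log2 fold change -0.42, edgeR adjusted p = 0.529) and Vps26a of retromer (-0.25, adjusted p = 0.540). Of 16 tested genes of the WASH complex, which builds actin on endosomes, and of its CCC partner complex, edgeR called 0, limma-voom 0 and DESeq2 1. Their log2 fold changes were negative in 15 of 16, beside 7335 of all 13347 tested genes. The median was -0.23, beside -0.03 over all genes, and 2 had an unadjusted p under 0.05. Genes of these complexes are not independent replicates, and a joint change was not tested. Commd8 and Commd9 of the CCC complex had the smallest p, with log2 fold changes of -0.57 (edgeR adjusted p = 0.147) and -0.62 (edgeR adjusted p = 0.346). Of 28 tested ESCRT genes, which sort cargo for lysosomal breakdown, edgeR, DESeq2 and limma-voom called 0 and 2 had an unadjusted p under 0.05. The smallest were those of Chmp4c (log2 fold change 0.81, edgeR adjusted p = 0.315) and Mvb12b (-0.41, adjusted p = 0.317).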

How the data were processed

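RNA of 3 Nfkb2-/- and 3 wild type Treg libraries was sequenced after unstranded library preparation, per the labels' protocols. Raw whole-number counts for each gene were deposited. Of tools and builds, the submitters' processing notes list FastQC, HISAT2, HTSeq, DESeq2 and GRCm38, and versions and counting mode are not given in the sources used here. Of 55573 gene identifiers, 55480 matched GENCODE M21 (GRCm38) for symbols, types and exon lengths.

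All 6 libraries entered 1 model with genotype as its sole term, made in edgeR 4.0.16 (R 4.3.3) after filterByExpr and TMM scaling, with the robust quasi-likelihood test, two-sided. P-values were Benjamini-Hochberg adjusted over the 13347 genes tested, with a threshold of 0.05; 28459 genes had no count. The common biological coefficient of variation was 0.228. SE is the log2 fold change divided by the square root of F. The code was tested on simulated data. Coding sequences were compared with Biopython 1.88, repeats counted over stretches of 50 bases, and figures drawn with matplotlib 3.10.9 in Python 3.11.15.

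The members and lists were chosen with earlier results of these data known. Named are the called members, further members by smallest p up to 24, the 6 with the highest level per kb in each family, the closest relative of each called member, X-linked members that were tested, and members within 10 Mb of Nfkb2 or Ptprc. From each partner list come the called genes or otherwise the 2 with the smallest p. Other genes, such as Rab6b, Snx14, Snx27 and Dennd5a, were chosen after their values were seen. Closest relatives were taken by coding sequence, since protein sequences were not used here.

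The labels number the replicates 1 to 3 in both genotypes without giving a meaning to the number. Same-numbered libraries deviated together from their genotype means (r = 0.364, 0.267 and 0.111, all above the limit of 0.1). Nfkb2-/- replicate 3 deviated more with wild type replicate 2 (r = 0.251). Deviations from a genotype mean cancel within the genotype, so these r are not independent and do not establish a pairing. A pairing by number was therefore tried, as a block in an alternative fit alone. Alternative settings comprised RLE or upper-quartile scaling, no count filter, 1 CPM in 3 libraries, DESeq2 1.42.0, limma-voom (limma 3.58.1), the replicate block, Y-linked or B cell marker level as a covariate, and leaving out each library.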

Additional observations from a re-analysis of the deposited data

How the results depend on the processing

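The counts of members called, 2 higher and 2 lower, were within 1.5 times of these values under both scalings, both filters, DESeq2 and the replicate block. With the block, 2 rose and 2 fell, with edgeR adjusted p of 0.0153 for Rab26, 0.0217 for Rab27a, 0.0335 for Rab4a and 0.0470 for Snx8, and the pairing changed no other call among the members. Limma-voom called 1 lower, in a fit in which 1.47% of all genes passed in either direction. With the Y-linked covariate 0 were called higher and 0 lower, with 3 and 2 at an unadjusted p under 0.05. Over all genes 0.0524% passed in that fit, and 7.04% had an unadjusted p under 0.05. With the B cell covariate 5 were called higher and 7 lower, beside 22.4% of all genes in either direction. Leaving out 1 library gave 0 to 5 called higher and 0 to 5 called lower. Over all genes 9.04% passed without wild type replicate 1, and 0.0509% to 0.479% without any other library. In each such fit that called none in a direction, at least 4 members had an unadjusted p under 0.05 in it. Fold changes were tallied for the 24 members with the smallest p, the tested X-linked members, Rab29 and Rab4b. Other named members, such as Rab37 and most of those named for their level, were not in the tally. In it, 365 fold changes kept direction and side of the threshold, 22 no longer passed, 9 newly passed and 7 turned direction, and the cause was not tested. These 7 were members not called. With the Y-linked covariate the log2 fold change was 0.046 for Rab32, -0.10 for Rab19, 0.046 for Snx12 and 0.20 for Rab29. Over fits without 1 library it ran from -0.61 to 0.10 for Snx6 and from -0.36 to 0.16 for Rab4b, positive without wild type replicate 1, and from -0.21 to 0.0021 for Rab29, positive without Nfkb2-/- replicate 1. Among the called members, Snx8 and Rab4a had the fewest counts, 13 to 19 and 35 to 61 counts per Nfkb2-/- library. In a fit without 1 library the group left with 2 is assumed to vary like the other.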
